A study of Mus musculus with 12 samples.

Results

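The comparison covers 6 of the 12 tumors of the series, the 3 from mice given DSP-0509 alone and the 3 from mice given vehicle, as their labels state. All mice were Balb/c and carried a subcutaneous tumor of CT26, a colon carcinoma line of the mouse, and were assigned to groups when tumors measured 130 to 170 mm3. The 3 DSP-0509 mice received 5 mg/kg intravenously, the 3 vehicle mice received no drug, and tumors were resected at day 4 after dosing. The other 6 mice received anti-PD-1 antibody at 200 µg/mouse, alone (3 mice) or with DSP-0509 at the same dose (3 mice, the combination). CT26 is a single transplanted line, so each tumor mixed those cells with whatever host cells had entered it. RNA of the whole tumor was counted on the nCounter system with the mouse version of the PanCancer immune panel, which reads molecules through color barcodes, without amplification.

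DSP-0509 is an agonist of TLR7, an endosomal receptor that senses single-stranded RNA in plasmacytoid dendritic cells, B cells and macrophages. Its signal runs through MyD88 and the IRAK kinases to NF-kB, which drives inflammatory cytokines, and to IRF7, which drives type I interferon. IL-12 and interferon from such cells activate T cells and NK cells, and these release interferon gamma (IFNγ). IFNγ acts in part through IRF1 to induce guanylate binding proteins, the chemokines that draw CXCR3-bearing lymphocytes and the machinery that loads MHC class I. The comparison asks how immune gene expression in the tumor differed after DSP-0509 alone.

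Depth was 750416 to 989088 counts per tumor in the DSP-0509 group (median 878135) and 856045 to 1022512 in the vehicle group (median 955018). The 8 negative control probes averaged 8.13 to 9.75 counts in DSP-0509 tumors and 7.75 to 10.8 in vehicle tumors, so values near 10 cannot be told from background. Of 750 endogenous genes, 646 reached a normalized count of 20 in at least 3 of the 12 tumors and were tested with limma, and 104 were not. The 20 housekeeping genes had a median log2 difference of 0.00 between DSP-0509 and vehicle tumors, from -0.53 for Sap130 to 0.31 for Nubp1, and 0 of 20 passed the test. Vehicle tumor 1 stood apart from its group. It was the lowest of the 3 vehicle tumors in 383 of 646 genes, against 129 for vehicle tumor 2 and 134 for vehicle tumor 3. DSP-0509 tumor 1 was the lowest of its group in 300 genes. The part of these tumors in the results was not tested beyond the values without them.

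Between DSP-0509 and vehicle tumors, 5 genes passed the test at an adjusted p under 0.05, and all 5 were higher after DSP-0509 (0.774% of the genes tested). They were Ido1, Gbp2b, Gbp5, Il12rb2 and Prf1. No gene passed in the lower direction (0%), where 11 genes had an unadjusted p under 0.05 (1.7%) by limma. In the higher direction, 94 genes did so (14.6%). An unpaired two-sided t-test on log2(value + 1) called 0 genes after Benjamini-Hochberg adjustment and 70 without it. The study's methods name a t-test of this kind for comparing groups in general, and nSolver for the nCounter data, so this is not the study's own nCounter test. The differences leaned upward across the panel: the median log2 difference was 0.20 and 442 genes were positive (68.4%), while after quantile normalization this median was -0.04. All 3 DSP-0509 tumors lay above all 3 vehicle tumors in 106 genes (16.4%) and below them in 24 genes (3.72%). At least 2-fold differences were found in 40 genes that were higher and 2 that were lower after DSP-0509.

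Ido1, the enzyme that breaks down tryptophan and restrains T cells, had 116, 82.9 and 142 normalized counts in DSP-0509 tumors 1, 2 and 3 and 24.9, 39.2 and 23.6 in vehicle tumors 1, 2 and 3. All 3 DSP-0509 tumors lay well above the highest vehicle tumor, and the log2 difference was 1.93 ± 0.29 (SE, adjusted p = 0.0193). Gbp2b (the mouse Gbp1) and Gbp5 encode guanylate binding proteins, GTPases that IFNγ induces for defense inside the cell. Gbp2b read 14750, 9399 and 7542 in DSP-0509 tumors, against 3370, 4246 and 3312 in vehicle tumors, with a log2 difference of 1.49 ± 0.24 (SE, adjusted p = 0.0193). Gbp5 was nearly the same in the DSP-0509 tumors, at 1414, 1384 and 1350, whereas the vehicle tumors had 403, 680 and 463. Its log2 difference was 1.46 ± 0.23 (SE, adjusted p = 0.0193). Il12rb2, the signaling chain of the IL-12 receptor on T and NK cells, was low throughout, with 50.3, 41.9 and 57.0 in DSP-0509 tumors and 23.9, 21.5 and 22.7 in vehicle tumors. The spread within both groups was narrow and the log2 difference was 1.09 ± 0.18 (SE, adjusted p = 0.0201). Prf1, which encodes the pore protein perforin of killer cells, had 505, 353 and 518 in DSP-0509 tumors and 153, 275 and 153 in vehicle tumors, a log2 difference of 1.28 ± 0.24 (SE, adjusted p = 0.0445). In vehicle tumor 2, Prf1 stood close to the lowest DSP-0509 tumor.

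**Figure D1:**
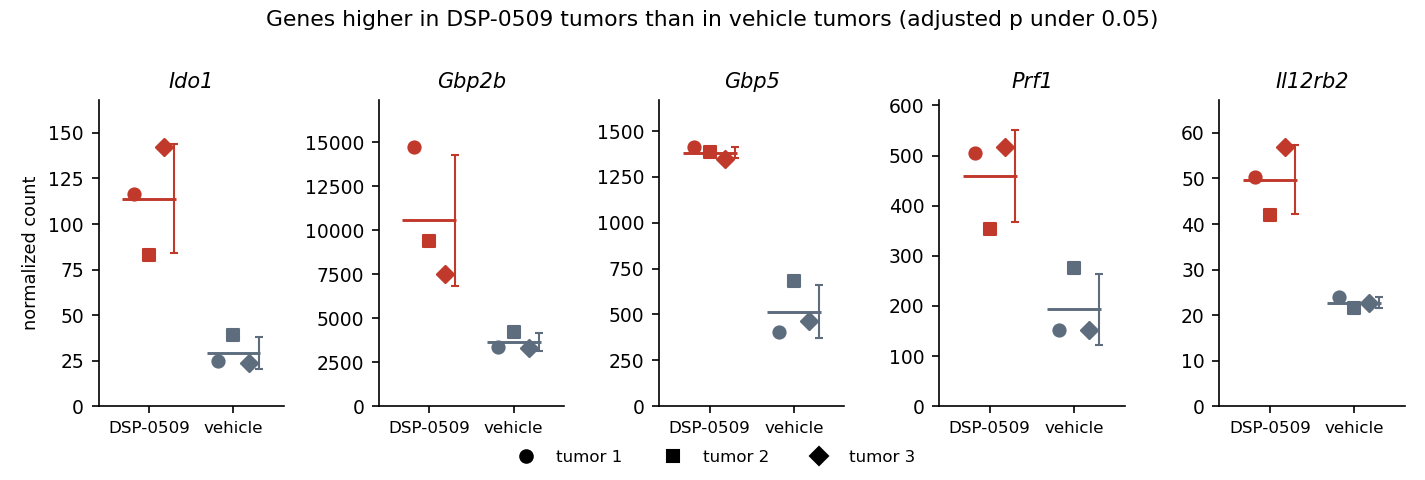
Normalized counts (linear axis from 0) of the 5 genes that passed the test, one panel per gene, in the DSP-0509 tumors (red, left) and the vehicle tumors (grey, right). Symbols mark tumors 1 to 3, horizontal lines the group means and bars the SD over the 3 tumors. The groups did not overlap in any panel, and the ratio of the lowest DSP-0509 tumor to the highest vehicle tumor was smallest for Prf1, with 353 in DSP-0509 tumor 2 and 275 in vehicle tumor 2.

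These calls did not hold in every fit that left out 1 tumor, and such a fit also has less power. Without vehicle tumor 1 or without vehicle tumor 3, 0 genes were called (limma, with 57 and 142 genes at an unadjusted p under 0.05). Without DSP-0509 tumor 1 the only call was Tyk2, a kinase of the type I interferon and IL-12 receptors, and without DSP-0509 tumor 3 it was Gbp2b. Tyk2 was named after its value was seen. Without vehicle tumor 2 the count was 8, and without anti-PD-1 antibody tumor 1, which enters only through the shared estimate of the spread, it was 17. Over the 12 fits that each left out 1 tumor, Gbp2b kept its call in 9, Gbp5 and Ido1 in 8, Il12rb2 in 7 and Prf1 in 3, and the highest adjusted p in those fits was 0.0821 for Gbp2b, Gbp5 and Ido1, 0.0943 for Il12rb2 and 0.172 for Prf1. A fit of only the 6 DSP-0509 and vehicle tumors called 1 gene, Cxcl11, and none of the 5.

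The promoters of the called genes are printed because 3 of them carry letters of the elements through which interferons act. GAS, the element through which IFNγ acts, was searched as TTCNNNGAA, and ISRE, the element bound by IRF factors, as GAAA, any 2 bases and GAAA. Both were searched on both strands, and on the strand shown a reversed ISRE reads TTTC, any 2 bases and TTTC. RefSeq promoters of GRCm38.p6 (250 bases before to 50 after the start) were at hand for 4 of the 5 genes, Gbp2b, Gbp5, Il12rb2 and Prf1. Capitals mark the matches, and no 2 matches overlapped.
Gbp5, chr3:142496684-142496983, plus strand: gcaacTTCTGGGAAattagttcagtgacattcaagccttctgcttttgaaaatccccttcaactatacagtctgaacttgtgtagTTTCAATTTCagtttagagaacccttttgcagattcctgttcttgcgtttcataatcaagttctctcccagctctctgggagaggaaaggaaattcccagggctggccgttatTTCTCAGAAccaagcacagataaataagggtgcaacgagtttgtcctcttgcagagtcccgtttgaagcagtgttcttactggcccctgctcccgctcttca
Gbp2b, chr3:142594597-142594896, plus strand: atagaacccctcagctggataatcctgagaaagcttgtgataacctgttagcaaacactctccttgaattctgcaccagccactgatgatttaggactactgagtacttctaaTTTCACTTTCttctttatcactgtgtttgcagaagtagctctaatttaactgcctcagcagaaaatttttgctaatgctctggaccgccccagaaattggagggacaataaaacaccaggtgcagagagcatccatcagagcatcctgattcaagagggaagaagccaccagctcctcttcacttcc
Il12rb2, chr6:67376139-67376438, minus strand: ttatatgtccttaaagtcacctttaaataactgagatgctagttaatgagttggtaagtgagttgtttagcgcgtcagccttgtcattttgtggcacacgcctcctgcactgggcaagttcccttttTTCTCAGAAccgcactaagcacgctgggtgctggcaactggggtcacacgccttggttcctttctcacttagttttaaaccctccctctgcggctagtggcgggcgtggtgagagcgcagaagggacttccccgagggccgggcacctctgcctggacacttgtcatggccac
Gbp5 held 2 GAS matches, whose first bases lie 245 and 52 bases before the start, and 1 reversed ISRE 165 bases before it. Gbp2b held 1 reversed ISRE, beginning 137 bases before the start, and Il12rb2 held 1 GAS at 123 bases. The promoter of Prf1 (chr10:61297586-61297885, plus strand) held neither set of letters in this window. Over 32851 mouse promoters of the same length, 8.30% held GAS letters and 3.44% ISRE letters. Among 695 promoters of panel genes, 11.9% and 7.19% did so.

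Genes induced by IFNγ formed the group that stood highest after the killer cell genes. All 17 members were tested and 3 passed, where 0.774% of all genes did. In 14 members the 3 DSP-0509 tumors lay above the 3 vehicle tumors (82.4%, against 16.4% of all genes). The median log2 difference was 1.02, against 0.20 over all genes tested. The median without vehicle tumor 1 was 0.90, against 0.11 over all genes. Next to the called Ido1, Gbp2b and Gbp5 stood the ligands of CXCR3, the receptor that guides effector T and NK cells. Cxcl11 had 433, 464 and 459 in DSP-0509 tumors and 129, 168 and 146 in vehicle tumors, with a log2 difference of 1.61 ± 0.32 (SE, adjusted p = 0.0521), just outside the threshold. Cxcl9 had 2462, 2981 and 2774 in DSP-0509 tumors and 733, 1199 and 1046 in vehicle tumors (1.49, adjusted p = 0.0585). Cxcl10 read 1688, 1728 and 2323 in DSP-0509 tumors and 528, 935 and 805 in vehicle tumors (1.36, adjusted p = 0.0585). For each of the 3 ligands the lowest DSP-0509 tumor exceeded the highest vehicle tumor, while the receptor Cxcr3 did not separate the groups, with 33.5, 40.1 and 26.00 after DSP-0509 and 22.9, 43.9 and 66.4 after vehicle (-0.31, adjusted p = 0.632).

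The upstream genes were less displaced than their targets. Ifng itself stayed near background, with 33.5, 20.5 and 21.1 in DSP-0509 tumors and 12.5, 12.2 and 20.9 in vehicle tumors, and the groups overlapped (0.69, adjusted p = 0.373). Irf1, which carries the response onward, had 4442, 3788 and 3248 in DSP-0509 tumors and 2217, 2457 and 2270 in vehicle tumors (0.71 ± 0.15, SE, adjusted p = 0.0522). All 3 DSP-0509 tumors lay above the vehicle tumors for Irf1. The receptor chain Ifngr1 (0.04) and the kinases Jak1 (-0.04) and Jak2 (-0.45) overlapped between groups, and the median of the 8 IFNγ signaling genes was 0.35, or 0.19 without vehicle tumor 1. Cd274, the ligand of PD-1, had 1488, 992 and 976 in DSP-0509 tumors and 714, 602 and 550 in vehicle tumors, a log2 difference of 0.87 ± 0.19 (SE, adjusted p = 0.0522). The 3 IFNγ-induced genes with overlapping groups were Ciita, the master regulator of MHC class II (1.02), Irf8 (0.44) and the feedback inhibitor Socs1 (0.27).

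**Figure D2:**
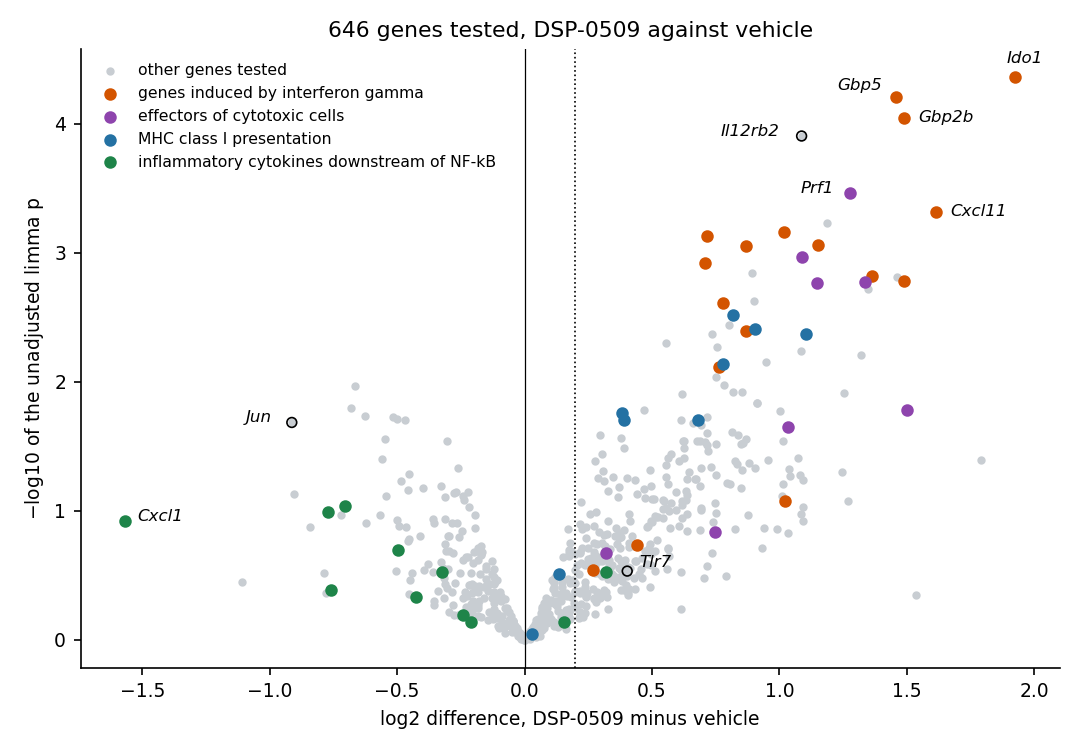
Log2 difference (DSP-0509 minus vehicle) against the −log10 of the unadjusted limma p for the 646 genes tested, with 4 gene lists colored and a gene of more than 1 list drawn in the first one listed. The dotted line is the median of all genes, 0.20, and the 5 called genes are the 5 highest points, with Cxcl1 farthest to the left at -1.57.

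Genes of killer cells had the highest median of the 36 lists with a tested member. All 8 effectors were tested, and 6 had non-overlapping groups, all above (75%, against 16.4% of all genes). Of the 8, 1 passed, where 0.774% of all genes did. The median log2 difference was 1.12 (0.87 without vehicle tumor 1). Gzmb, the granzyme that triggers apoptosis, had 453, 271 and 420 in DSP-0509 tumors and 108, 255 and 115 in vehicle tumors (1.34, adjusted p = 0.0585). Gzma, the other main granzyme, had 901, 952 and 1539 in DSP-0509 tumors and 167, 770 and 448 in vehicle tumors (1.50, adjusted p = 0.225). For Gzma the highest vehicle tumor was 4.60 times the lowest, and the difference was not called. Fasl, the death ligand on activated lymphocytes, had 50.3, 45.6 and 42.1 in DSP-0509 tumors, against 14.6, 28.0 and 22.7 in vehicle tumors (1.09 ± 0.24, SE, adjusted p = 0.0577). Gzmk (1.15, adjusted p = 0.0585) and Tnfsf10, which encodes TRAIL (1.04, adjusted p = 0.239), also lay above without overlap. Ctsw (0.75) and Gzmm (0.32) overlapped between groups, and Gzmm read under 20 in all 6 tumors.

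The MHC class I route displays peptides to CD8+ T cells. Of its 14 members 13 were tested, and 11 lay above (84.6%, against 16.4% of all genes). By limma 0 passed (11 had an unadjusted p under 0.05, and the t-test called 0 genes anywhere), and the median was 0.76. Psmb9 and Psmb10 encode subunits of the immunoproteasome, which cuts the peptides. Psmb9 had 2260, 2133 and 2949 in DSP-0509 tumors and 942, 1407 and 1287 in vehicle tumors (1.02 ± 0.21, SE, adjusted p = 0.0522), and Psmb10 had 1311, 1413 and 1958 in DSP-0509 tumors and 509, 937 and 760 in vehicle tumors (1.11 ± 0.30, SE, adjusted p = 0.0982). Tap1, a chain of the transporter that carries peptides into the endoplasmic reticulum, had 2943, 2837 and 2645 in DSP-0509 tumors and 1470, 1989 and 1726 in vehicle tumors (0.71 ± 0.16, SE, adjusted p = 0.0585). Its partner Tap2 differed by 0.90 (adjusted p = 0.0982). Among heavy chains, the nonclassical H2-T23 had 4819, 4730 and 5006 in DSP-0509 tumors and 2072, 3062 and 3289 in vehicle tumors (0.82, adjusted p = 0.085). The classical H2-K1 separated the groups by less, with 6470, 6483 and 7214 in DSP-0509 tumors and 4653, 5714 and 5155 in vehicle tumors (0.38), and H2-D1 overlapped (0.13). The IFNγ list shares 4 of these members, and of the 9 tested members that do not, 7 lay above.

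MHC class II, which presents to CD4+ T cells, had no member of 10 with separate groups (0% above, against 16.4% of all genes). Its median was 0.38, from 1.02 for Ciita to -0.52 for H2-DMb2. H2-Ab1 had 2094, 3436 and 2514 in DSP-0509 tumors and 1867, 1804 and 2762 in vehicle tumors, and vehicle tumor 3 exceeded DSP-0509 tumors 1 and 3. H2-Aa and H2-Eb1 also overlapped, with log2 differences of 0.24 and 0.43.

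Type I interferon was examined through the genes themselves and their targets, at day 4 after dosing only, so the values do not show earlier times. The 5 type I and III interferon genes on the panel, Ifna1, Ifna2, Ifna4, Ifnb1 and Ifnl2, were not tested, and their values ran from 4.95 to 20.1 in DSP-0509 tumors and from 4.67 to 19.8 in vehicle tumors. On the same normalized scale, the highest negative control probe reached 22.4, 15.8 and 19.8 in DSP-0509 tumors and 17.7, 15.0 and 10.9 in vehicle tumors. No interferon gene exceeded it in any DSP-0509 tumor, and in vehicle tumors only Ifna4 did, by little and in 2 of 3. Of 30 targets 28 were tested, 9 lay above (32.1%, against 16.4% of all genes), none passed in limma (8 had an unadjusted p under 0.05), and 26 of 28 were positive. The median was 0.38, or 0.24 without vehicle tumor 1. Zbp1, a sensor of nucleic acids, led with 4334, 2744 and 2817 in DSP-0509 tumors and 1059, 1673 and 1604 in vehicle tumors (1.19 ± 0.24, SE, adjusted p = 0.0522). Oas3, of the antiviral RNA-degrading system, had 202, 178 and 180 in DSP-0509 tumors and 81.1, 122 and 99.1 in vehicle tumors (0.90 ± 0.23, SE, adjusted p = 0.0721). Ifi44l lay above by 1.09, with vehicle tumor 1 far below the others at 330. The other 6 that lay above, named after their values were seen, were Isg15 (0.80), Ifit3 (0.78), Xaf1 (0.74), Ddx60 (0.62), Bst2 (0.49) and Oasl1 (0.38). The remaining 19 overlapped between groups. Among them, Irf7 had 3055, 1591 and 1618 in DSP-0509 tumors and 813, 1566 and 1702 in vehicle tumors, where DSP-0509 tumor 1 alone was high. Ifit1 had 617, 216 and 136 in DSP-0509 tumors and 242, 379 and 357 in vehicle tumors (-0.28, adjusted p = 0.716), so that 1 DSP-0509 tumor was highest and the other 2 were lowest. Ifi27 (-0.02) and Ifitm1 (0.08) were close to 0.

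**Figure D3:**
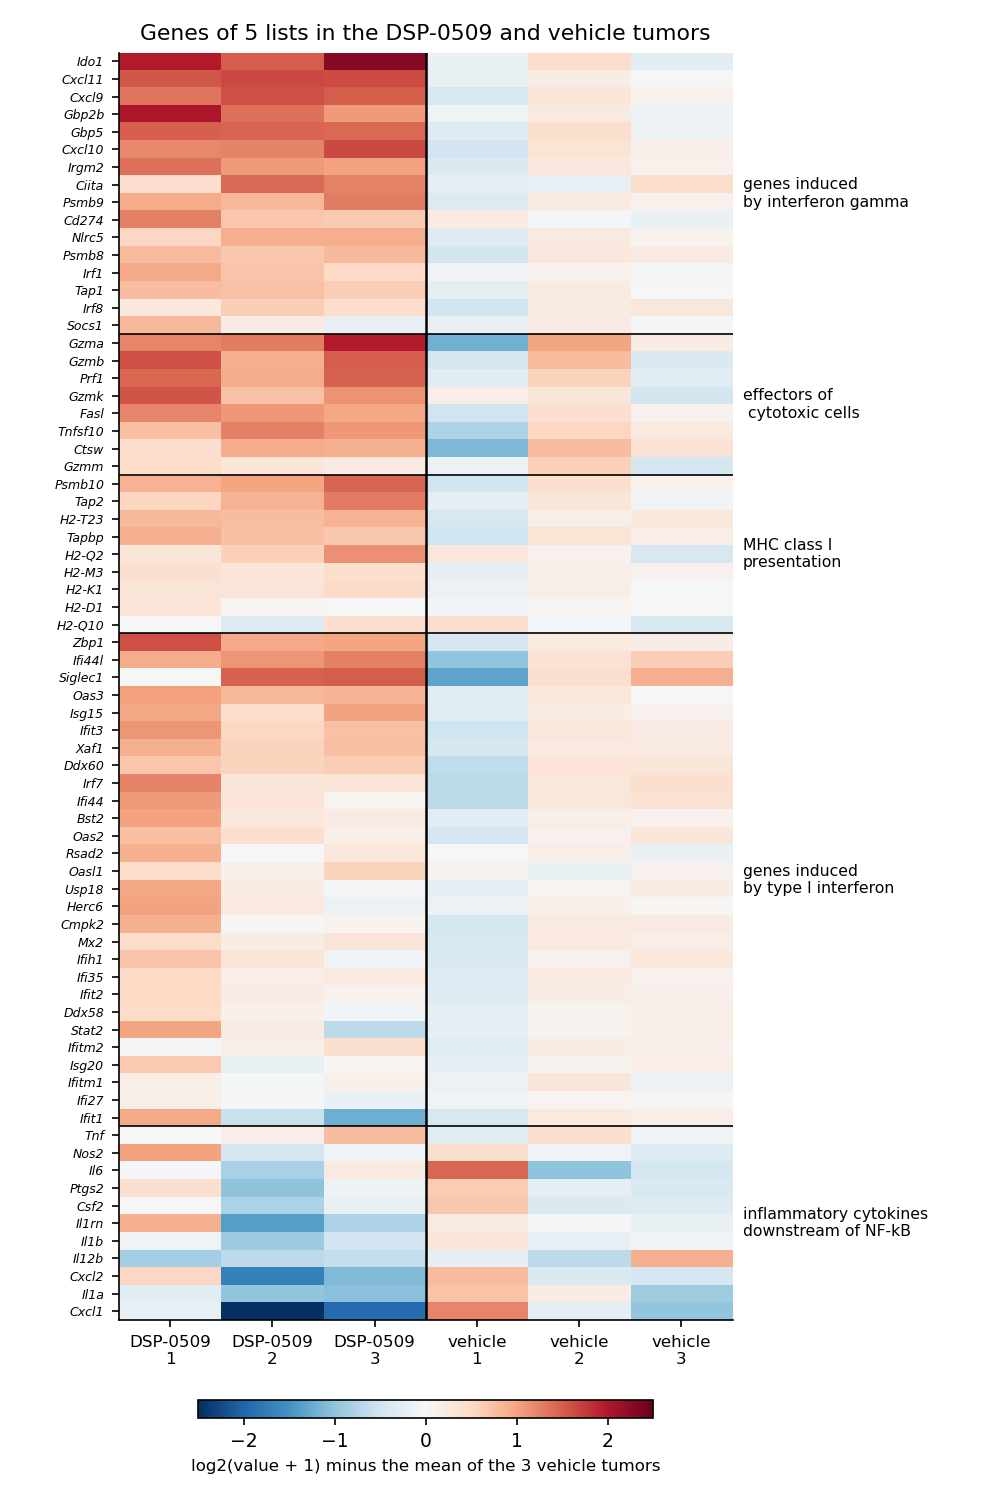
Log2(value + 1) of each gene in each tumor, minus the mean of the 3 vehicle tumors, for the tested genes of 5 lists except 1, with DSP-0509 tumors 1 to 3 left of the black line and vehicle tumors 1 to 3 right of it. A gene of several lists is drawn once, and within a list genes run from the highest to the lowest difference. The IFNγ-induced, cytotoxic and MHC class I blocks are red in the DSP-0509 tumors, the type I interferon block is paler, and Cxcl1 and Cxcl2 are blue in DSP-0509 tumors 2 and 3.

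Tlr7, the receptor of the drug, had 123, 178 and 165 in DSP-0509 tumors and 70.7, 147 and 149 in vehicle tumors. The groups overlapped, and the log2 difference of 0.40 ± 0.36 (SE, adjusted p = 0.559) had a 95% interval of -0.40 to 1.21. Among the 31 endosomal TLR and signaling genes, 2 lay above (6.45%, against 16.4% of all genes) and 1 below, where 3.72% of all genes did. None passed (1 had an unadjusted p under 0.05 by limma). The median was 0.04 as deposited but -0.16 after quantile normalization or centring on the median gene. Irak2, a kinase that prolongs TLR signaling, had 395, 338 and 447 in DSP-0509 tumors and 251, 264 and 283 in vehicle tumors (0.56 ± 0.16, SE, adjusted p = 0.111). Tank, an adaptor that limits TLR signaling, lay below, with 695, 675 and 551 in DSP-0509 tumors and 810, 699 and 811 in vehicle tumors (-0.28, adjusted p = 0.337). Tlr8, the neighbor of Tlr7 on the X chromosome, overlapped by a single vehicle tumor (0.67, adjusted p = 0.313).

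Inflammatory cytokines driven by NF-kB did not follow the interferon-related genes at day 4, and earlier times were not sampled in this series. Of 16 members 11 were tested, and none lay above (0%, against 16.4% of all genes) or below. None passed (0 had an unadjusted p under 0.05 by limma), and the median was -0.42. Cxcl1, a chemokine that recruits neutrophils, had the lowest log2 difference on the panel, yet its groups overlapped. It read 504, 95.03 and 151 in DSP-0509 tumors and 1335, 493 and 290 in vehicle tumors (-1.57 ± 0.92, SE, adjusted p = 0.401). DSP-0509 tumors 2 and 3 were the lowest of the 6 tumors and vehicle tumor 1 the highest. Cxcl2 showed a like pattern, with 120, 25.1 and 38.4 in DSP-0509 tumors and 146, 64.5 and 61.8 in vehicle tumors (-0.76, adjusted p = 0.642). Tnf had 67.1, 74.5 and 114 in DSP-0509 tumors and 54.0, 87.9 and 60.9 in vehicle tumors (0.32, adjusted p = 0.563), and Il6 had 48.1, 27.9 and 58.2 in DSP-0509 tumors and 136, 24.3 and 36.4 in vehicle tumors (-0.21, adjusted p = 0.839). Il12b, the p40 subunit of IL-12, was near background after DSP-0509, with 11.2, 13.0 and 13.6, and had 17.7, 13.1 and 40.01 in vehicle tumors (-0.70, adjusted p = 0.365). Vehicle tumors 1 and 2 were near background for Il12b too, as their highest negative control probe reached 17.7 and 15.0. The neutrophil chemokine list, which includes Cxcl1 and Cxcl2, had a median of -0.52 with 6 of 7 members tested. Neutrophil markers had a median of 0.06 (-0.15 after quantile normalization), and Lcn2 ranged from 313 to 2724 within the DSP-0509 group.

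The IL-12 and IL-18 axis held the call of Il12rb2. Of 11 members 9 were tested, 3 lay above (33.3%, against 16.4% of all genes) and the median was 0.40, or 0.22 without vehicle tumor 1. Il12rb1, the chain that pairs with Il12rb2, had 66.0, 112 and 95.3 in DSP-0509 tumors and 53.0, 56.1 and 39.1 in vehicle tumors (0.85 ± 0.28, SE, adjusted p = 0.190). Il18rap, a chain of the IL-18 receptor, had 1275, 1255 and 1476 in DSP-0509 tumors and 1219, 1033 and 1029 in vehicle tumors (0.29). Stat4, the factor downstream of IL-12, overlapped (0.50), as did Tbx21, the T-bet factor of type 1 lymphocytes (0.24). Receptors for cytokines of the common gamma chain, which sustain T and NK cells, lay above in 4 of 10 tested members (40%, against 16.4% of all genes). Il15ra had 81.6, 119 and 180 in DSP-0509 tumors and 29.1, 44.9 and 60.9 in vehicle tumors (1.46 ± 0.34, SE, adjusted p = 0.0585), and Il2rb had 842, 1165 and 1454 in DSP-0509 tumors and 256, 704 and 582 in vehicle tumors (1.25 ± 0.41, SE, adjusted p = 0.190). The cytokine Il7 itself hardly differed (0.01).

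Of 11 T cell markers 4 lay above (36.4%, against 16.4% of all genes), none passed (2 had an unadjusted p under 0.05 by limma), and the median was 0.62, or 0.36 without vehicle tumor 1. Their values summed to 1054, 1121 and 1135 in DSP-0509 tumors and 491, 850 and 808 in vehicle tumors. Vehicle tumor 1 was far below the others. Cd3g, of the receptor complex, had 256, 296 and 258 in DSP-0509 tumors and 105, 189 and 180 in vehicle tumors (0.81, adjusted p = 0.251), while Cd3e overlapped (0.51). Both CD8 genes lay above. Cd8a had 131, 183 and 163 in DSP-0509 tumors and 58.2, 100 and 81.8 in vehicle tumors (1.00 ± 0.35, SE, adjusted p = 0.225), and Cd8b1 had 33.5, 35.4 and 38.4 in DSP-0509 tumors and 11.4, 27.1 and 22.7 in vehicle tumors (0.86 ± 0.34, SE, adjusted p = 0.251). In these whole-tumor samples, more cells of a type and more RNA per cell cannot be told apart, and the same holds for fewer cells and less RNA. Cd4 (0.32) and Foxp3, the factor of regulatory T cells (0.46), overlapped between groups at low values, from 11.2 to 24.8 for Foxp3 in DSP-0509 tumors and from 9.36 to 16.8 in vehicle tumors.

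Receptors that mark or restrain activated T cells were mixed. Pdcd1, which encodes PD-1, had 225, 244 and 333 in DSP-0509 tumors and 56.1, 150 and 137 in vehicle tumors, a log2 difference of 1.32 ± 0.38 (SE, adjusted p = 0.124). Lag3 had 111, 128 and 126 in DSP-0509 tumors and 48.9, 80.4 and 66.4 in vehicle tumors (0.91 ± 0.31, SE, adjusted p = 0.214). Cd96 lay below, but at values near background, with 14.5, 10.2 and 13.6 in DSP-0509 tumors and 17.7, 21.5 and 14.6 in vehicle tumors (-0.45). Ctla4 (0.30) and Tigit (0.21) overlapped, and the 8 tested inhibitory receptors had a median of 0.32. Of 14 tested co-stimulatory genes 3 lay above (21.4%, against 16.4% of all genes), namely Tnfrsf14 (0.88), Icos (0.85) and Cd40 (0.63). Cd70 lay below (-0.54), and the list median of 0.18 was -0.10 after quantile normalization and 0.07 without vehicle tumor 1. Of the inhibitory ligands and enzymes, Ido1 and Cd274 lay above, while Arg1, an arginine-degrading enzyme of myeloid cells, had 2458, 797 and 895 in DSP-0509 tumors and 3413, 1837 and 1436 in vehicle tumors (-0.79, adjusted p = 0.563).

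NK cell markers had a median of 0.75, which was 0.30 without vehicle tumor 1, and 2 of 9 tested members lay above (22.2%, against 16.4% of all genes). Summed over the list, NK markers came to 1939, 2056 and 1799 in DSP-0509 tumors and 669, 1628 and 1593 in vehicle tumors, so vehicle tumor 1 was far below the other 5 tumors. Klrk1, the receptor NKG2D, had 265, 317 and 239 in DSP-0509 tumors and 60.3, 192 and 180 in vehicle tumors (1.08 ± 0.49, SE, adjusted p = 0.313). Klrd1, or CD94, had 534, 604 and 532 in DSP-0509 tumors and 181, 434 and 370 in vehicle tumors (0.85 ± 0.38, SE, adjusted p = 0.303). Ncr1, which defines NK cells, overlapped, with 198, 261 and 298 in DSP-0509 tumors and 53.0, 208 and 195 in vehicle tumors (0.94, adjusted p = 0.413). Xcl1, a chemokine for dendritic cells, had 98.4, 124 and 102 in DSP-0509 tumors and 65.5, 195 and 249 in vehicle tumors (-0.45, adjusted p = 0.653).

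**Figure D4:**
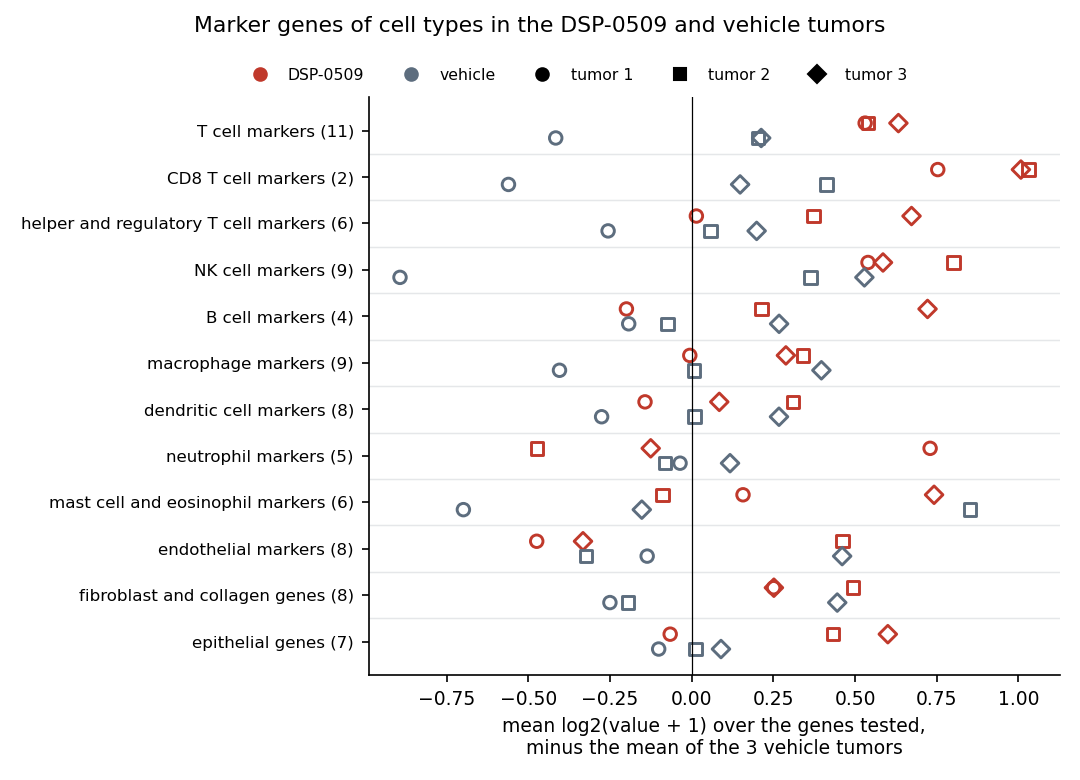
Mean log2(value + 1) over the tested genes of each cell type list, minus the mean of the 3 vehicle tumors, for DSP-0509 tumors (red, upper row of each pair) and vehicle tumors (grey, lower row). Numbers in brackets count the genes tested. T cell, CD8 T cell and NK cell markers are the lists in which all DSP-0509 tumors lie right of all vehicle tumors, with vehicle tumor 1 far to the left, and the groups overlap in the other lists. For NK cell markers the groups nearly touch, with a mean before subtraction of 7.12 in DSP-0509 tumor 1 and 7.11 in vehicle tumor 3.

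Among myeloid cells, macrophage markers had a median of 0.25. Cd68, a lysosomal protein of macrophages, had 1877, 1804 and 2081 in DSP-0509 tumors and 1279, 1487 and 1802 in vehicle tumors (0.35 ± 0.16, SE, adjusted p = 0.313), and Cd84 also lay above (0.40). Cd14, a co-receptor for bacterial lipopolysaccharide, lay below, with 842, 644 and 639 in DSP-0509 tumors and 1043, 967 and 914 in vehicle tumors (-0.47 ± 0.17, SE, adjusted p = 0.225). Emr1, which encodes F4/80 (0.22), Csf1r (0.15) and the mannose receptor Mrc1 (-0.10) overlapped. Csf1, the growth factor of macrophages, lay below, with 2524, 2098 and 1290 in DSP-0509 tumors and 2682, 2614 and 3044 in vehicle tumors (-0.55 ± 0.21, SE, adjusted p = 0.251). The monocyte chemokine Ccl2 did not separate the groups (0.10), and Ccl8 did not either, with vehicle tumor 1 at 787 and the other 5 tumors between 3269 and 5387. Of the 5 Fc receptor genes, Fcgr3 lay below, with 953, 986 and 466 in DSP-0509 tumors and 989, 996 and 1169 in vehicle tumors, and its log2 difference of -0.46 was -0.11 without DSP-0509 tumor 3. The activating Fcgr1 (0.57) and Fcgr4 (0.49) overlapped.

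Dendritic cell markers had a median of 0.09 as deposited and -0.20 after quantile normalization, with no member of 8 apart (0% above, against 16.4% of all genes). Xcr1, of the dendritic cells that prime CD8+ T cells, had 54.8, 61.5 and 49.5 in DSP-0509 tumors and 29.1, 46.7 and 60.9 in vehicle tumors. Ccr7, which guides dendritic cells to lymph nodes, had 39.1, 43.8 and 47.0 in DSP-0509 tumors and 45.7, 43.9 and 95.5 in vehicle tumors (-0.41). Only 4 of 12 B cell markers passed the filter on low values, and no value exceeded 52.2 in DSP-0509 tumors or 55.5 in vehicle tumors. Mast cell genes varied widely within groups, and Tpsab1, mast cell tryptase, ran from 348 to 1336 in DSP-0509 tumors and from 336 to 1500 in vehicle tumors.

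Genes of the tumor cells and the stroma did not separate the groups as lists. Epcam and Cdh1, which define epithelium, were low, with Epcam at 21.2, 59.6 and 134 in DSP-0509 tumors and 40.5, 29.0 and 32.7 in vehicle tumors and Cdh1 at 31.3, 64.3 and 114 in DSP-0509 tumors and 29.1, 40.2 and 40.01 in vehicle tumors. The mesothelin gene Msln was well expressed and lay below, with 2135, 2057 and 2137 in DSP-0509 tumors and 2550, 2510 and 2533 in vehicle tumors (-0.26 ± 0.12, SE, adjusted p = 0.300). The vehicle tumors agreed closely for Msln. Col3a1, a fibrillar collagen, had 10173, 10978 and 7355 in DSP-0509 tumors and 1665, 2774 and 12670 in vehicle tumors (1.27, adjusted p = 0.345), so the collagen level of vehicle tumor 3 resembled that of the DSP-0509 tumors. Endothelial markers had a median of -0.20 with no member apart, and Pecam1, or CD31, differed by -0.50 (adjusted p = 0.399).

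**Figure D5:**
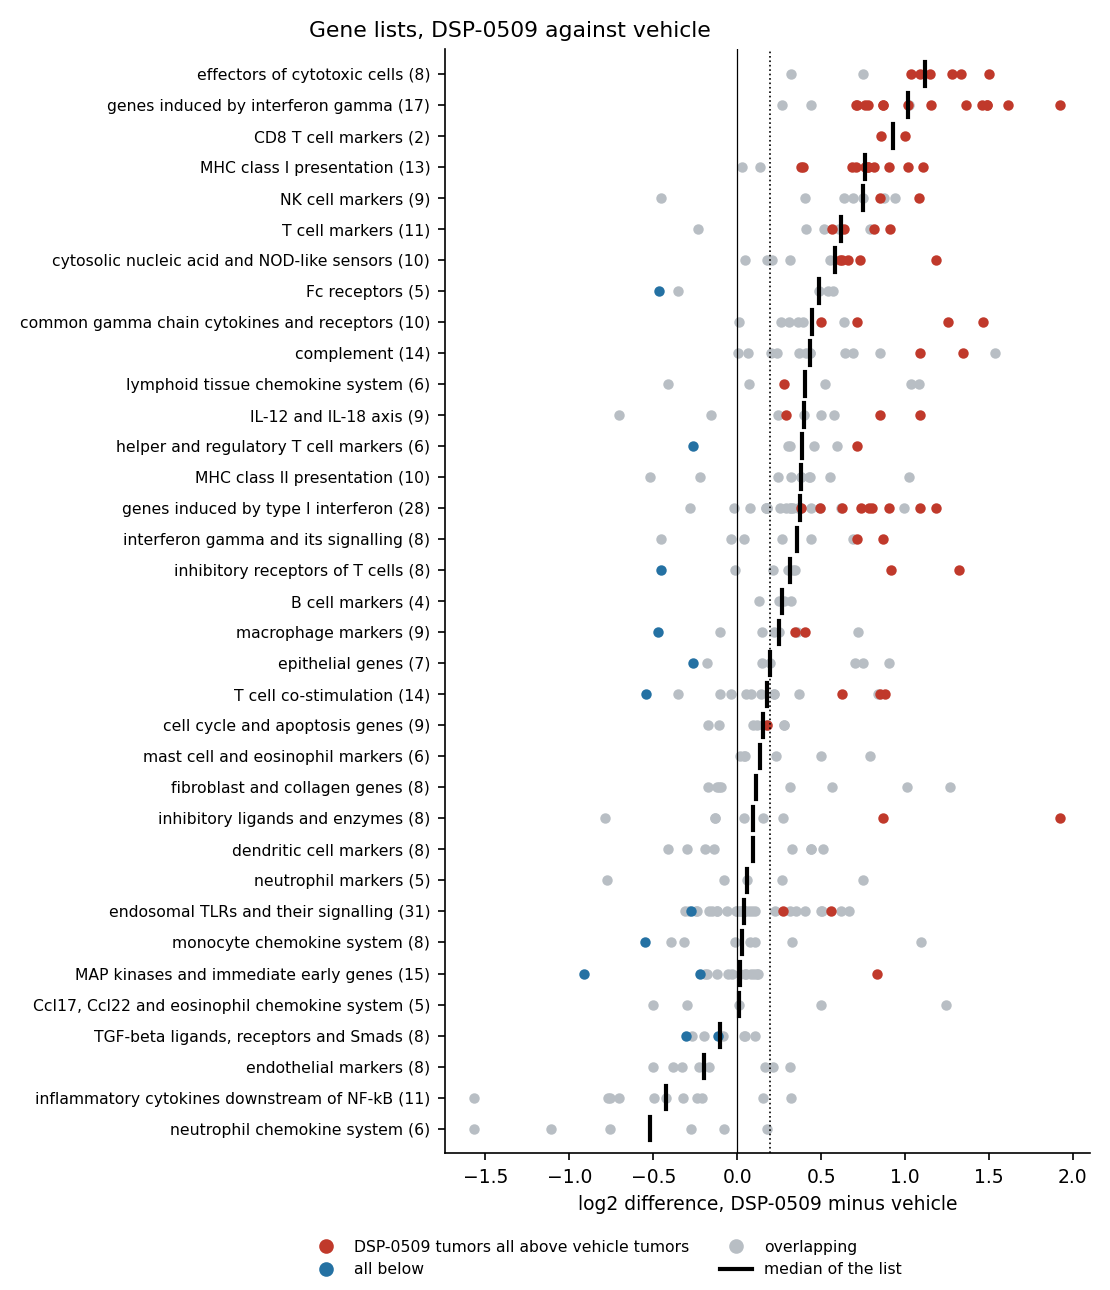
Log2 difference (DSP-0509 minus vehicle) of every tested gene of 35 of the 36 lists with a tested member, one row per list ordered by its median (black bar), with the number of genes tested in brackets. Red points are genes whose 3 DSP-0509 tumors all lay above the 3 vehicle tumors, blue points the reverse, and the dotted line is the median of all genes, 0.20. Cytotoxic effectors (1.12), IFNγ-induced genes (1.02), CD8 markers (0.93) and MHC class I (0.76) stand at the top and the neutrophil chemokines (-0.52) at the bottom.

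Of the 36 lists, 32 had a positive median and 4 a negative one, and 12 of the 32, none with a median above 0.20, turned negative after quantile normalization or centring. Genes that sense nucleic acids and bacterial products in the cytosol lay above in 5 of 10 tested members (50%, against 16.4% of all genes), with a median of 0.58, or 0.38 without vehicle tumor 1, and with Zbp1 followed by Mefv (0.73), Nod1 (0.66) and Nod2 (0.62). Ifih1 and Ddx58, which sense double-stranded RNA, overlapped (0.31 and 0.18). In the complement list 2 of 14 tested members lay above (14.3%, against 16.4% of all genes). Serping1, the C1 inhibitor, had 1536, 1546 and 2205 in DSP-0509 tumors and 383, 903 and 918 in vehicle tumors (1.35 ± 0.33, SE, adjusted p = 0.0617), and C4b had 1338, 1687 and 1340 in DSP-0509 tumors and 416, 686 and 1105 in vehicle tumors (1.09 ± 0.31, SE, adjusted p = 0.120). Cfd, or adipsin, had the highest log2 difference of the list with the least certainty, at 17.9, 756 and 204 in DSP-0509 tumors and 18.7, 18.7 and 309 in vehicle tumors (1.54 ± 1.96, SE, adjusted p = 0.659).

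Chemokines of lymphoid tissue had a median of 0.40 over 6 tested genes, and 1 lay above (16.7%, against 16.4% of all genes). Cxcl13, which draws B cells, had 43.6, 28.9 and 79.2 in DSP-0509 tumors and 10.4, 18.7 and 49.1 in vehicle tumors (1.08, adjusted p = 0.387). Ccl21a, which draws Ccr7-bearing cells, was near background except for 54.5 in DSP-0509 tumor 3. In the list of Ccl17, Ccl22 and eosinophil chemokines the median was 0.01 (-0.23 after quantile normalization), and the eosinophil chemokine Ccl11 had 174, 253 and 210 in DSP-0509 tumors and 41.6, 64.5 and 254 in vehicle tumors (1.24, adjusted p = 0.306). Vehicle tumors 1 and 2 were low for Ccl11 and vehicle tumor 3 was as high as any DSP-0509 tumor. The medians of the lists not yet given were 0.44 for the common gamma chain cytokines and receptors, 0.43 for complement, 0.49 for Fc receptors, 0.39 for helper and regulatory T cell markers and 0.26 for B cell markers. Without vehicle tumor 1, the median fell to 0.23 for complement, 0.27 for Fc receptors, 0.13 for B cell markers, 0.15 for macrophage markers and 0.25 for lymphoid tissue chemokines, was -0.24 for neutrophil chemokines and turned to -0.16 for mast cell and eosinophil markers, -0.23 for monocyte chemokines and -0.03 for MAP kinases and immediate early genes. Small medians that turned negative after quantile normalization were 0.03 (-0.16) for the monocyte chemokines, 0.10 (-0.12) for the inhibitory ligands and enzymes, 0.14 (-0.15) for mast cell and eosinophil markers, 0.11 (-0.02) for fibroblast and collagen genes, 0.20 (-0.07) for epithelial genes, 0.02 (-0.21) for MAP kinases and immediate early genes and 0.15 (-0.04) for cell cycle and apoptosis genes.

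No lower value after DSP-0509 passed the test. Jun, an immediate early transcription factor, had the lowest log2 difference among the 24 genes without overlap, with 1423, 870 and 453 in DSP-0509 tumors and 1695, 1469 and 1508 in vehicle tumors (-0.91 ± 0.33, SE, adjusted p = 0.229). The vehicle tumors were close together and the DSP-0509 tumors were not. Its partner Fos lay above, with 282, 296 and 820 in DSP-0509 tumors and 263, 166 and 274 in vehicle tumors (0.84, adjusted p = 0.294), through DSP-0509 tumor 3. Klra17, a lectin-like receptor gene, had 19.0, 15.8 and 17.3 in DSP-0509 tumors and 25.99, 24.3 and 36.4 in vehicle tumors (-0.68 ± 0.24, SE, adjusted p = 0.225), and Ambp, the precursor of a plasma protease inhibitor, had 12.3, 15.8 and 13.6 in DSP-0509 tumors and 24.9, 25.2 and 18.2 in vehicle tumors (-0.67 ± 0.21, SE, adjusted p = 0.184). Neither clearly exceeded the highest negative control probe in DSP-0509 tumors 1, 2 and 3, which reached 22.4, 15.8 and 19.8. Smad3, which relays TGF-β signals, had 740, 897 and 739 in DSP-0509 tumors and 971, 1008 and 944 in vehicle tumors (-0.30 ± 0.12, SE, adjusted p = 0.251). Smad2 lay below as well (-0.12), and the 8 TGF-β genes had a median of -0.10, with Tgfb1 at 0.04. Of cell cycle and apoptosis genes, 1 of 9 lay above (11.1%, against 16.4% of all genes), Bcl2l1 (0.17), while Myc (-0.17) and the p53 gene Trp53 (0.28) overlapped.

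DSP-0509 alone was also set against the other treated groups, which share its 3 tumors with the comparison above. Against anti-PD-1 antibody, 0 of 646 genes were called (0%), with 25 at an unadjusted p under 0.05 by limma, 3 of them higher and 22 lower after DSP-0509, and 0 called by the t-test. The median log2 difference was 0.01. For the 5 genes called against vehicle, the log2 difference of DSP-0509 minus anti-PD-1 antibody was 0.47 (95% interval -0.16 to 1.11) for Ido1, 0.19 (95% interval -0.35 to 0.72) for Gbp2b, 0.34 (95% interval -0.15 to 0.84) for Gbp5, 0.45 (95% interval 0.04 to 0.85) for Il12rb2 and 0.37 (95% interval -0.17 to 0.91) for Prf1. These 5 genes were chosen because the same 3 DSP-0509 tumors were high against vehicle, and that choice favors positive differences here. The intervals are not adjusted for the number of genes, and none of the 5 was called in this comparison. The genes with the smallest p were lower after DSP-0509. Il12b had 11.2, 13.0 and 13.6 in DSP-0509 tumors and 30.0, 38.6 and 57.0 in anti-PD-1 antibody tumors (log2 difference -1.61, adjusted p = 0.357). Klra17 had 19.0, 15.8 and 17.3 in DSP-0509 tumors and 33.2, 43.6 and 31.5 in anti-PD-1 antibody tumors (log2 difference -0.999, adjusted p = 0.357). In the DSP-0509 tumors, Il12b and Klra17 were close to background. Ccr7 had 39.1, 43.8 and 47.0 in DSP-0509 tumors and 76.0, 77.3 and 98.3 in anti-PD-1 antibody tumors, without overlap (log2 difference -0.93, adjusted p = 0.704). Icam4 (-0.98) and Ccr8 (-0.62) complete the 5.

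The combination against DSP-0509 alone gave 0 calls as well (0%), with 64 genes at an unadjusted p under 0.05 by limma, 59 of them higher and 5 lower in the combination, and 0 called by the t-test. With the replicate number as a block, 1 gene was called, Itga2b, the integrin chain of platelets, which was higher in the combination by 1.01 on the log2 scale (adjusted p = 0.0411, against 0.230 without the block). In a fit of only these 6 tumors with the block, chosen after seeing the data, 0 genes were called. Itga2b had 31.7, 30.8 and 41.1 in combination tumors and 12.3, 19.6 and 18.6 in DSP-0509 tumors, where it was close to background. Without DSP-0509 tumor 1, 2 genes were called, Cd274 and Ifit1. Cd274 had 2153, 1897 and 2271 in combination tumors and 1488, 992 and 976 in DSP-0509 tumors (log2 difference 0.89, adjusted p = 0.230 over all 12 tumors). C3, the central complement component, had 2627, 2395 and 2320 in combination tumors and 1496, 1295 and 916 in DSP-0509 tumors (log2 difference 1.01, adjusted p = 0.311). Cd53 (0.89) was higher and the neurofilament gene Nefl (-0.79) lower in the combination among the 5 smallest p. Of the genes called for DSP-0509 against vehicle, Gbp2b had 13934, 18293 and 17863 in combination tumors and 14750, 9399 and 7542 in DSP-0509 tumors (log2 difference 0.71, adjusted p = 0.422), and Ido1 had 86.6, 147 and 152 in combination tumors and 116, 82.9 and 142 in DSP-0509 tumors (log2 difference 0.16, 95% interval -0.47 to 0.80).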

How the data were processed

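Whole-tumor RNA was counted on the nCounter system and normalized by the authors with nSolver 4.0. As deposited, the signal of a gene is its count multiplied by 1 factor for that tumor. Background was not subtracted, and the 14 control probes carry no factor. The sources used here do not name the genes behind the factor. Depth was read from the steps of the endogenous values up to 40, of which 100% were whole multiples of 1 count within 0.1, and ranged from 750416 to 1155698 counts over the 12 tumors.

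The deposited values were taken to log2(value + 1), so differences of low genes are understated. Endogenous genes that reached 20 in 3 or more tumors were fitted with limma 3.58.1 (lmFit and eBayes, R 4.3.3) over all 12 tumors with no covariate, and p-values were adjusted by Benjamini-Hochberg over the 646 genes of each of 3 comparisons. The limma test is two-sided. A list was described by its counts and the median of its tested members, and "above" or "below" means that all 3 tumors of a group lay on one side of the other 3. By themselves, 3 against 3 tumors cannot give an exact permutation p below 0.1. Each tumor came from its own mouse. The members and the 37 gene lists were chosen with earlier results of these data known, and 32 genes stand in more than 1 list. Some genes and 1 list that the rule below names are not reported here.

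Genes were named by a rule: every gene called, the 10 largest rises and falls without overlap, Tlr7, Fasl and Ido1, the outermost members of each list (at most 4 a side), every member of a list of at most 5, the called genes or the 5 smallest p of the other comparisons, and the 2 housekeeping genes at either end. Panel symbols were kept, of which 754 of 770 are current RefSeq symbols, 8 are synonyms and 8 are neither.

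Same-numbered tumors deviated together in every pair of the combination and DSP-0509 (correlations of 0.592, 0.436 and 0.325), which by rule counts as pairing, although nothing in the labels ties a number to a batch. For DSP-0509 and anti-PD-1 antibody all correlations were positive (0.646, 0.552 and 0.0863), but the last was near 0, so by rule they do not count as paired. On simulated data for DSP-0509 against vehicle (646 genes, 200 changed, 10 runs), the method recovered 43.8% of genes changed 1.5-fold, 73.1% at 2-fold, 88.4% at 3-fold and 96.8% at 4-fold, and 4.06% of calls were false. The simulation drew each gene independently, with no shift shared by the genes of a tumor, and its number of changed genes was set in advance. In the real data vehicle tumor 1 was the lowest of its group in 383 of 646 genes. These rates therefore check the code and are not the power or error rate of the real comparison. Figures were drawn with matplotlib 3.10.9 in Python 3.11.15.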

Additional observations from a re-analysis of the deposited data

How the results depend on the processing

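The count of 5 genes for DSP-0509 against vehicle was 11 with a pseudocount of 10, 13 with a filter of 50, 28 after rescaling to the housekeeping genes, 10 after quantile normalization (3 of the 5 among them), 38 with array weights (33 higher and 5 lower, 4 of the 5 among them), 13 with an intensity trend and robust fit, 1 in a fit of only the groups compared, 0 with the unpaired t-test and 105 with no adjustment. It was 4 with no filter, after centring on the median gene and after background subtraction. Leaving out each of the 12 tumors gave 0 to 17. The replicate number as a block gave 81 (76 higher and 5 lower), and a block in a fit of only the groups compared, chosen after seeing the data, gave 0. Same-numbered DSP-0509 and vehicle tumors did not deviate together in every pair (correlations of 0.372, -0.176 and -0.0406), so by rule they do not count as paired. With 3 tumors a group, these correlations cannot exclude that a number marks a shared batch. Against anti-PD-1 antibody the count of 0 was 1 with array weights (Icam4) and 25 with no adjustment. For the combination against DSP-0509 the count of 0 was 1 after rescaling to the housekeeping genes (Itga2b), 1 with array weights (Cd274), 1 with the replicate block (0 in a fit of only the groups compared with the block, chosen after seeing the data), 64 with no adjustment and 0 to 2 when single tumors were left out, and the block changed no other call there. Of 620 alternative values of 24 single genes, 513 kept their direction and side of the threshold, 47 fell short of it, 60 newly passed it and 0 reversed. All of the 24 genes but Tlr7 had groups that did not overlap. Leaving out a tumor cannot reverse such a gene. The t-test, the block and the fit of only the groups compared leave the log2 difference unchanged. The count of 0 reversed was therefore largely fixed in advance and does not measure stability. Of 468 alternative list medians, 33 moved by more than the spread between tumors. Positive list medians numbered 32 of 36 as deposited and 20 after quantile normalization or centring. Genes in the 106 lying above all vehicle tumors became 115 when only vehicle tumors 2 and 3 were used, a choice made after seeing the data. That count could not fall, since a gene above all vehicle tumors is also above any part of them. It therefore does not measure how far the 106 rest on vehicle tumor 1. The planned count test was not run. The endogenous values did come out as whole multiples of 1 count, but with the unscaled control probes in the same columns most columns did not meet the standard set for recovered counts. Counts near 10 limit the low genes.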

Other observations

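Of the 106 genes whose 3 DSP-0509 tumors lay above the 3 vehicle tumors, 37 belong to none of the gene lists, and of the 24 that lay below, 12 belong to none. Of all 646 genes tested, 324 belong to a list. A few of the genes outside the lists are given here as values, and they were chosen after their values were seen. Cxcr6, a chemokine receptor of tissue T cells, had 189, 277 and 281 normalized counts in DSP-0509 tumors 1, 2 and 3 and 76.9, 176 and 147 in vehicle tumors 1, 2 and 3 (log2 difference 0.95, adjusted p = 0.287). Slamf7, a receptor of NK cells and other leukocytes, had 101, 65.2 and 114 in DSP-0509 tumors and 35.3, 52.3 and 54.6 in vehicle tumors (0.95, adjusted p = 0.137). Cd69, an early marker of lymphocyte activation, had 116, 130 and 118 in DSP-0509 tumors and 46.8, 89.7 and 93.7 in vehicle tumors (0.71, adjusted p = 0.251). Fas, the receptor of Fasl, had 173, 136 and 206 in DSP-0509 tumors and 81.1, 112 and 109 in vehicle tumors (0.76, adjusted p = 0.116), and neither Fas nor Fasl passed the test. Cd180, a relative of the TLR family on B cells and myeloid cells, had 538, 567 and 805 in DSP-0509 tumors and 147, 404 and 444 in vehicle tumors (1.07, adjusted p = 0.287). Vehicle tumor 1 was the lowest vehicle tumor in 83 of the 106 genes, against 383 of all 646 genes tested. In the 24 genes that lay below, DSP-0509 tumor 3 was the lowest DSP-0509 tumor in 15, against 192 of all 646.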
